A study of Mus musculus with 4 samples.

Results

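The genes described here are complement components and receptors in the mouse aorta: the chains of C1q (C1qa, C1qb and C1qc), complement factor B (Cfb) and the receptors of the fragments C3a and C5a (C3ar1 and C5ar1). They were chosen by symbol from a list of 8, as every probe set paired with exactly 1 of these symbols. The rule found 11 probe sets of 6 genes, out of 18193 genes named by a probe set of their own. C4b shared its probe set with C4a, and no probe set used here was paired with C3 alone, so C3 and C4b were not analysed here. Expression was measured with Affymetrix arrays in whole aortas of mice aged 6 weeks, either with Smad4 deleted in smooth muscle (Smad4-KO) or wild-type littermates (WT). There were 2 arrays per genotype, each with 400 ng of RNA from 3 to 5 vessels combined before labelling. The labels give the pools of a genotype as biological samples, and p-values rest on the spread between them. The sources used here do not name the promoter that drove the deletion, the floxed part of Smad4, or the strain.

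Complement is a cascade of proteins that marks cells and debris for removal. C1q, built from 3 related chains, binds its targets and starts the classical pathway, factor B drives the amplification loop of the alternative pathway, and both routes cleave C3 and C5. The small fragments C3a and C5a attract and activate white blood cells through their receptors, and the later components form a pore in membranes. Macrophages are a main source of C1q, whereas the liver makes most of the other circulating components.

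The arrays differed in more than genotype. Smad4 itself read 4394 and 3819 in WT against 2676 and 3580 in Smad4-KO (replicates 1 and 2, the order used throughout). Smad4-KO replicate 1 stood apart through transcripts of liver cells. The summed signal of 6 hepatocyte markers was 850 and 688 in WT, 108893 in Smad4-KO replicate 1 and 1373 in Smad4-KO replicate 2. Albumin (Alb) alone read 301, 311, 38110 and 514. The differences of the 6 genes are given without it as well, as are some of the list medians and calls. For the Dap labelling control, the 3' signal over the 5' signal was 10.02 and 2.96 in WT against 3.62 and 14.1 in Smad4-KO, so it set WT replicate 1 and Smad4-KO replicate 2 apart from the others. Xist, from the inactive X chromosome, was high on the arrays numbered 1 and low on those numbered 2.

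The comparison asked which complement transcripts change in the aorta when smooth muscle lacks Smad4. All 6 genes had higher signals on both Smad4-KO arrays than on either WT array, and this held for each of the 11 probe sets. In limma, with the brightest probe set of each gene and an adjusted p of 0.05, 5 of the 6 rose: C3ar1, C5ar1, Cfb, C1qa and C1qc. Among all 13645 genes tested, 4.92% were called higher and 1.39% lower, 6.31% in either direction. Both Smad4-KO arrays were above both WT arrays for 25.9% of these genes and for 22% of 26209 probe sets. The median difference of the 6 genes was 2.62 on the log2 scale, against -0.01 over all genes tested. The same arrays had higher signals of macrophage markers, whose summed level was 20626 and 15769 in WT against 75346 and 109910 in Smad4-KO. In RNA of a whole vessel, more cells of a type and more RNA per cell cannot be told apart.

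**Figure D1:**
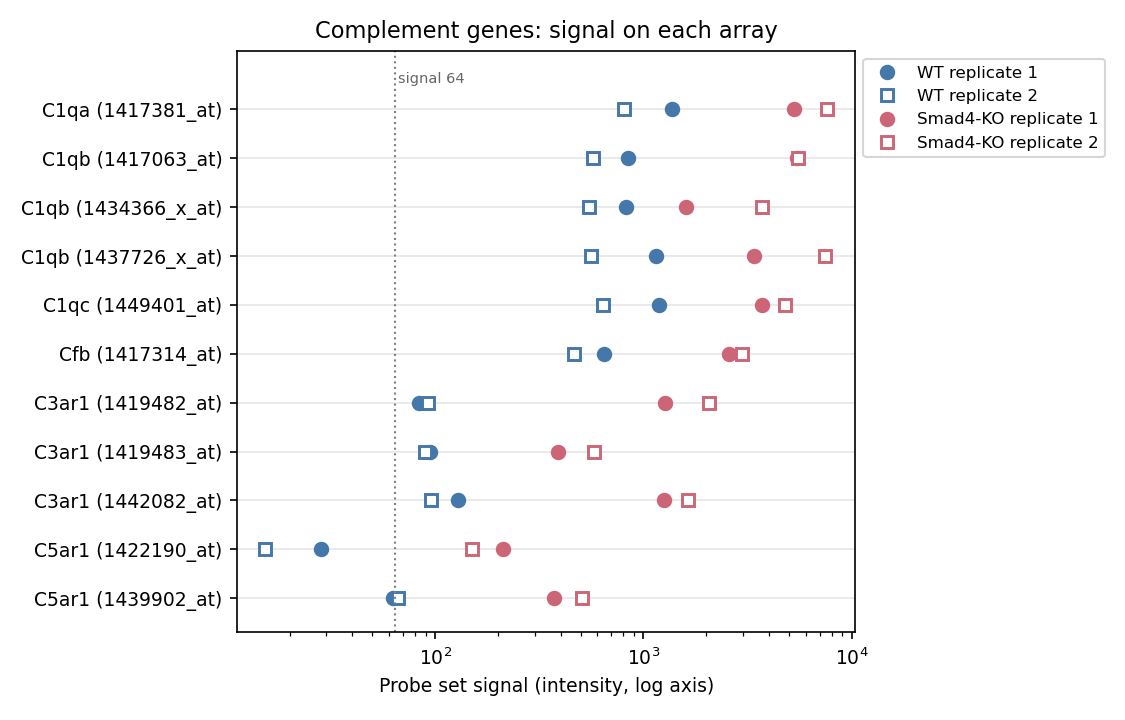
Signal of the 11 probe sets of the 6 complement genes on each array (log axis, one symbol per array, blue WT and red Smad4-KO). In every row both red symbols lie to the right of both blue ones, and the C1qa probe set runs from 803 and 1365 in WT to 5297 and 7605 in Smad4-KO. The dotted line marks a signal of 64.

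C1qa encodes the A chain of C1q. Its probe set (1417381_at) read 1365 and 803 in WT against 5297 and 7605 in Smad4-KO, so the lower Smad4-KO array was 3.88 times the higher WT array. It rose 6.06-fold, a log2 difference of 2.60 ± 0.40 (SE from limma, 2 against 2 arrays, 95% interval 1.59 to 3.61, adjusted p = 0.0270 in limma). C1qc encodes the C chain. Its probe set (1449401_at) read 1190 and 640 in WT against 3701 and 4783 in Smad4-KO, and the genotypes did not overlap. The gene rose 4.82-fold (2.27 ± 0.41, 95% interval 1.24 to 3.30, limma adjusted p = 0.0392). In both genes WT replicate 1 lay above WT replicate 2, and Smad4-KO replicate 2 above Smad4-KO replicate 1. The Dap ratio had the same order within each genotype. So did the 3' over 5' ratio of beta-actin, at 11.4 and 4.19 in WT against 2.83 and 12.8 in Smad4-KO. The part of these ratios in the order of the signals was not tested.

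C1qb, the B chain, was measured by 3 probe sets that differed in size of change. The brightest (1437726_x_at) read 1148 and 561 in WT against 3407 and 7418 in Smad4-KO. Its log2 difference of 2.65 ± 0.54 (95% interval 1.29 to 4.01) did not pass (limma adjusted p = 0.0543). A second one (1417063_at) read 839 and 574 in WT against 5486 and 5541 in Smad4-KO, a difference of 2.99. The third (1434366_x_at) read 823 and 551 in WT against 1598 and 3695 in Smad4-KO, a difference of 1.85. The Smad4-KO arrays were nearly level in the second probe set, whereas replicate 1 lay well below replicate 2 in both others. The suffix _x_at is the manufacturer's mark for probes that can also match other transcripts. The labelling control ratios of these arrays were 3.62 and 14.1, and their part in the split between the probe sets was not tested.

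C1qa, C1qb and C1qc lie next to each other on chromosome 4, with no other gene between them in the RefSeq table (GRCm38.p6), and their signals had similar profiles over the 4 arrays. Measured as the Euclidean distance of log2 signals centred on each gene's own mean, C1qa, C1qc and C1qb were 0.17, 0.32 and 0.36 from the mean C1q profile. Cfb was 0.46, C5ar1 0.75 and C3ar1 1.25 away, against a median of 2.71 over 13602 other genes. The distance includes the difference between genotypes, and all 6 genes were higher in Smad4-KO. Nearness against that median therefore does not show a likeness beyond this shared rise. Each C1q chain is part of that mean, which lowers its own distance. Some genes outside the complement lists lay nearer than the chains themselves. Panx1 (0.105) was nearer than every C1q chain, and Cd74 (0.309) was nearer than C1qc and C1qb. To show the regions that lie before the start of such genes, upstream sequence from the RefSeq table (build GRCm38.p6) is given for C1qb and C1qc. The table matched 4 of the 6 genes. Capitals mark the one match in each window to AGGAAGT, the core recognised by PU.1, a transcription factor of myeloid cells, which is read here on the opposite strand.

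C1qb, chr4:136886201-136886450, minus strand, 250 bases before the start: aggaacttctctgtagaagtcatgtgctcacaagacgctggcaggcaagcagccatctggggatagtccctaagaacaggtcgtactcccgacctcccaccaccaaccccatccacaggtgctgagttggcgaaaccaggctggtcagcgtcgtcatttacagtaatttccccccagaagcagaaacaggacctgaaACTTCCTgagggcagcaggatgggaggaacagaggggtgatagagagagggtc
C1qc, chr4:136892937-136893164, minus strand, 228 bases: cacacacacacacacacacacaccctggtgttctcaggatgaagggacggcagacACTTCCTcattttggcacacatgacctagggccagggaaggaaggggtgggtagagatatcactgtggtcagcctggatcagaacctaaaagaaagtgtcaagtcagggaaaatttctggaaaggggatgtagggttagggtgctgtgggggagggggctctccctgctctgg

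The match lay 53 bases before the start of C1qb and 195 before that of C1qc, counted at its first base. The 22 bases nearest that C1qc start lie inside the gene's outermost RefSeq bounds and are not shown. The same core, in either orientation, was in 7.69% of 32851 promoter windows of 250 bases. It also occurred 2 times before the listed start of C5ar1 and was not found before C3ar1. Of the C5ar1 window, 202 bases lie inside the gene's outermost RefSeq bounds, with both matches. These C5ar1 sites are shown with a few bases on each side, in capitals as above:

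C5ar1, chr7:16259510-16259539, minus strand: gaaactccaaaACTTCCTtcagaagaggta
C5ar1, chr7:16259392-16259421, minus strand: tggggccagagACTTCCTtccttttccaag

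The other motifs searched on both strands were TGANTCA (AP-1), TTCNNNGAA (interferon-gamma activation site) and the interferon response element and NF-kB consensus. They were in 6.75%, 7.02%, 2.98% and 0.356% of all windows. Of these, C3ar1 had 1 match to AP-1, and C1qb, C1qc and C5ar1 had 0 matches. The motifs were chosen after the promoters were seen, and a match describes letters, not binding. Spi1, which encodes PU.1, read 114 and 73.5 in WT against 268 and 383 in Smad4-KO, a difference of 1.81 ± 0.38 that did not pass (limma adjusted p = 0.0572).

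Cfb encodes factor B, the protease of the alternative pathway. Its probe set (1417314_at) read 650 and 463 in WT against 2565 and 2984 in Smad4-KO, and the lower Smad4-KO array was 3.95 times the higher WT array. Cfb rose 5.04-fold (2.33 ± 0.33, 95% interval 1.51 to 3.16, limma adjusted p = 0.0219). The liver is a known source of factor B, and the part of liver transcripts in this difference was not tested. Smad4-KO replicate 1, the array with high hepatocyte markers, was the lower of its genotype, and without it the difference was 2.44 (limma adjusted p = 0.0390).

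C3ar1, the receptor of C3a on myeloid cells, had the largest difference of the 6 genes with its brightest probe set. That probe set (1442082_at) read 128 and 95.1 in WT against 1248 and 1643 in Smad4-KO, and the lower Smad4-KO array was 9.73 times the higher WT array. It rose 13.0-fold (3.70 ± 0.34, 95% interval 2.85 to 4.54, limma adjusted p = 0.0125). Another C3ar1 probe set (1419482_at) read 84.0 and 92.7 in WT against 1266 and 2067 in Smad4-KO, a difference of 4.20. The dimmest on the Smad4-KO arrays (1419483_at) read 94.8 and 89.6 in WT against 388 and 578 in Smad4-KO, a difference of 2.36. All 3 had both genotypes apart, but the size of the rise ranged from 5.14-fold to 18.3-fold between them.

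C5ar1, the receptor of C5a on neutrophils and macrophages, was low in WT aortas. Its brighter probe set (1439902_at) read 62.7 and 66.3 in WT against 371 and 508 in Smad4-KO. It rose 6.73-fold (2.75 ± 0.32, 95% interval 1.95 to 3.55, limma adjusted p = 0.0165), and 6.66-fold with signals under 64 raised to 64. The dimmer probe set (1422190_at) read 28.4 and 15.3 in WT against 212 and 150 in Smad4-KO. With that floor its fold was at least 2.78, and its Smad4-KO arrays stood in the opposite order to those of the brighter one.

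The 6 genes kept the sign of their difference in each pairing of a Smad4-KO array with a WT array. Each of the 6 genes had a WT mean above the filter on low signals (5.64 on the log2 scale), with C5ar1 lowest at 6.01. Over the brightest probe sets the differences were smallest for C1qb, at 1.57 between the arrays numbered 1, and largest for C3ar1, at 4.11 between those numbered 2. The count of calls was less steady than the values. Without Smad4-KO replicate 1 it was 5, with C1qb past the threshold (3.21, adjusted p = 0.0370 in limma) and C1qc not (2.45, adjusted p = 0.0601), where 4.27% of all genes were called higher. C1qa (2.86), C3ar1 (3.895) and C5ar1 (2.98) were called without that array too, at adjusted p of 0.0357, 0.0158 and 0.0206 in limma. The count was 3 without Smad4-KO replicate 2, where 4.63% of all genes were called higher, and 1 without WT replicate 1, where 1.85% were. Without WT replicate 2 it was 0 in limma, as for all genes (0%), with 6 of the 6 at an unadjusted p under 0.05. A block for the arrays alike in the Dap ratio also ended every call (0% of all genes). There the differences were the same, the 6 genes had limma adjusted p from 0.0557 to 0.0644, and 6 were at an unadjusted p under 0.05. A fit of every probe set by itself called 2 of the 11, both of C3ar1, where 0.702% of 26209 were called higher.

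Other genes of the cascade, from lists arranged by role, mostly did not pass. Of 37 tested, 2 rose and 0 fell in limma at an adjusted p of 0.05, a share close to the 4.92% of all genes called higher. At an unadjusted p under 0.05 in limma there were 11 of the 37, against 19.3% of all genes. Both Smad4-KO arrays were above both WT arrays in 18 of the 37, against 25.9% of all genes, and below them in 2. The difference was above 0 in 32, and 23 were highest on Smad4-KO replicate 1. The median difference of the 37 was 0.95, and 0.55 without Smad4-KO replicate 1. Of the 37, 7 had a WT mean under the filter on low signals and were tested through Smad4-KO alone. Both rises were receptors. Itgax, which pairs with Itgb2 to form complement receptor 4, read 87.95 and 83.65 in WT against 629 and 1048 in Smad4-KO, and rose 9.46-fold (3.24 ± 0.365, limma adjusted p = 0.0157). Itgb2, the beta chain shared by complement receptors 3 and 4, read 338 and 156 in WT against 2546 and 2868 in Smad4-KO, and rose 11.8-fold (3.56 ± 0.45, limma adjusted p = 0.0182). Itgam, the alpha chain of complement receptor 3, read 53.5 and 46.6 in WT against 273 and 112 in Smad4-KO, and did not pass (1.81 ± 0.49, limma adjusted p = 0.110). Its WT signals were under 64, and its fold was 3.495 as measured and 2.73 with signals under 64 raised to 64. Cr2, the receptor of C3 fragments on B cells, gave no settled direction, since its fold was 0.762 as measured and 1.596 with that floor. Without Smad4-KO replicate 1 the receptor list's median went from 1.17 to 0.67.

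Activation genes, most of them of the classical and lectin pathways, with properdin (Cfp) of the alternative one, had a median of 0.82, and 0 of 12 passed in limma. The median was 0.41 without Smad4-KO replicate 1, on which 7 of the 12 were highest. C2, the classical counterpart of factor B, read 1005 and 1111 in WT against 2074 and 3645 in Smad4-KO (1.38 ± 0.38, limma adjusted p = 0.116). C1ra and C1s1, the proteases that ride on C1q, had differences of 0.68 ± 0.30 and 1.07 ± 0.46. Both Smad4-KO arrays were above both WT arrays in these 3 genes, but none passed.

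Regulators shield the body's own cells. Of 12 tested, 0 passed in limma and their median difference was 0.52 (0.49 without Smad4-KO replicate 1). Cr1l, a membrane regulator of C3 convertases, read 1958 and 1922 in WT against 2067 and 1923 in Smad4-KO (0.04 ± 0.29, 95% interval -0.69 to 0.77). Clu, a fluid-phase inhibitor of the pore, differed by 0.10 ± 0.33, and Serping1, the inhibitor of C1 proteases, by 0.53 ± 0.30. Cd55, which speeds the decay of convertases, read 270 and 245 in WT against 653 and 378 in Smad4-KO (0.95 ± 0.38, limma adjusted p = 0.255). Cd59a, which blocks pore assembly, read 3176 and 3136 in WT against 2013 and 1843 in Smad4-KO (-0.71 ± 0.29, limma adjusted p = 0.270). The genotypes did not overlap, with Smad4-KO lower, but the interval of -1.44 to 0.02 holds 0.

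Terminal pathway genes were high on a single array. The summed signal of the 5 tested was 306 and 164 in WT, 10454 in Smad4-KO replicate 1 and 239 in Smad4-KO replicate 2. Hc, which encodes C5, read 57.1, 6.38, 2584 and 30.5 in this array order, and C9, the pore-forming component, 34.1, 33.9, 3622 and 3.95. None of the 5 passed in limma, and both Smad4-KO arrays were above both WT arrays in 1 of them, C8a. The lectins Mbl1 and Mbl2 and the regulators Cfi and Vtn were also highest on Smad4-KO replicate 1. These examples other than Hc were named after their values were seen. When Smad4-KO replicate 2 was left out, so that this array stood alone for its genotype, 11 of the 37 genes were called higher (4.63% of all genes), among them C9, Hc, Mbl1, Mbl2, Cfi and Vtn. Without Smad4-KO replicate 1, 2 were called higher, Itgax and Itgb2, and 3 lower (1.06% of all genes), C9, Cr2 and Mbl2. Their signals on the remaining Smad4-KO array were 3.95, 12.55 and 6.04, and those in WT were under 64 too. The WT means of C9, Hc and Mbl2 lay under the filter on low signals. These genes were tested through Smad4-KO, and their calls in either direction are no support.

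**Figure D2:**
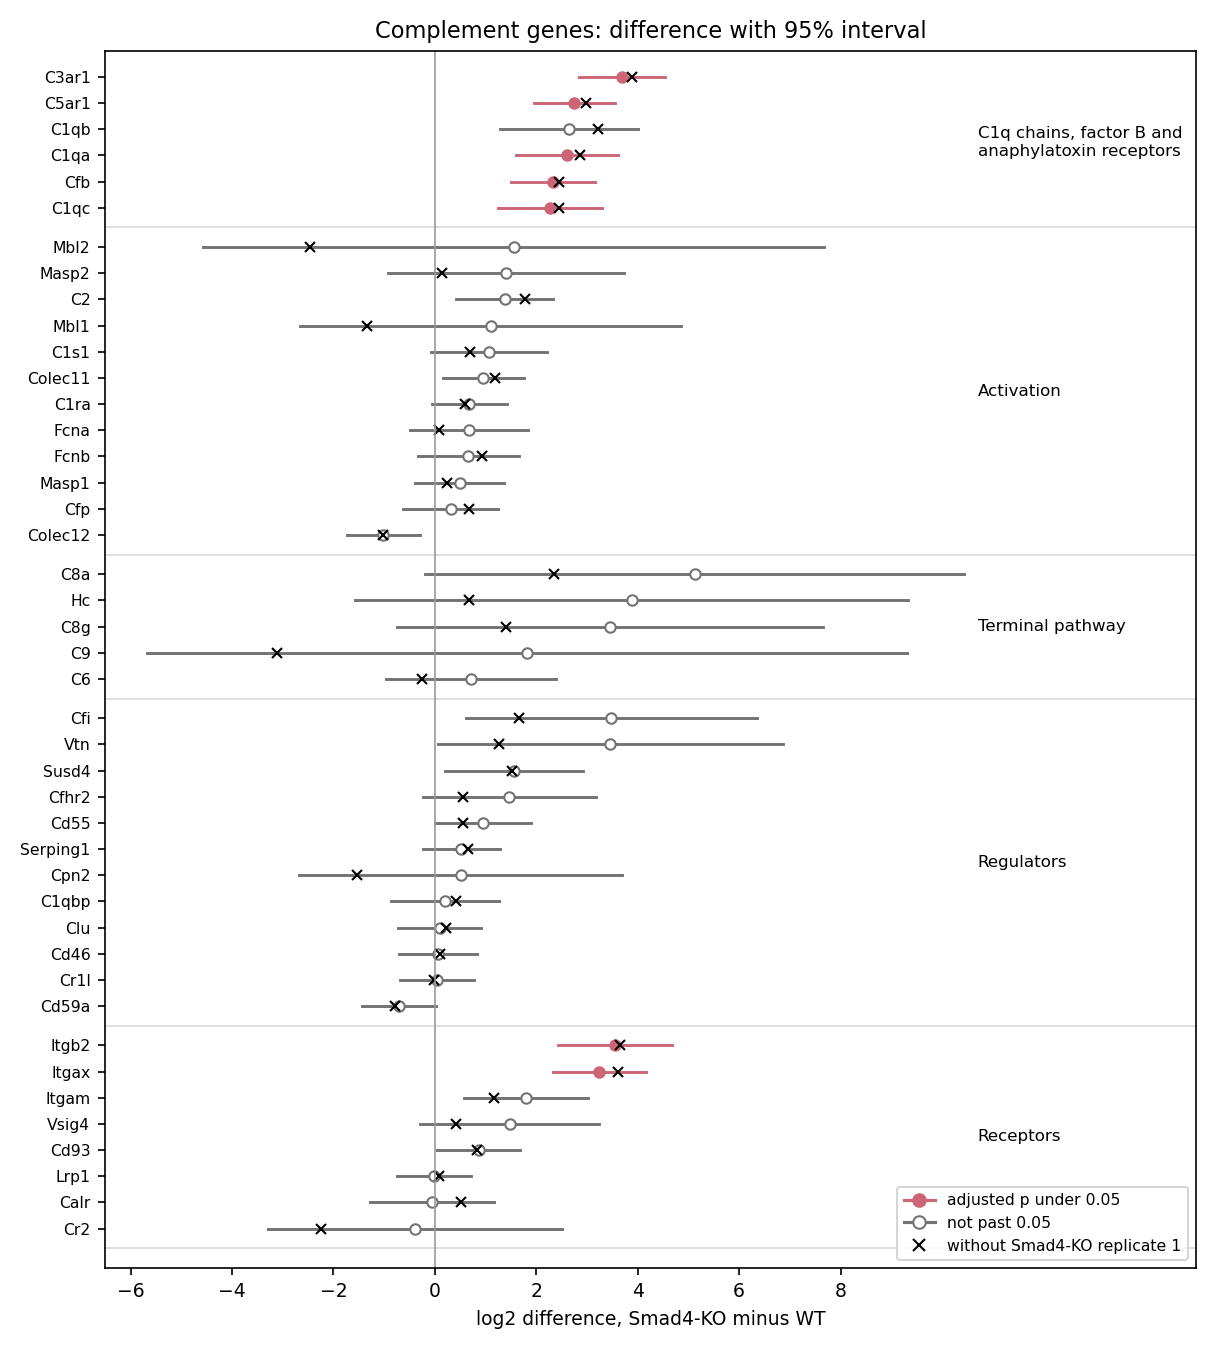
Log2 difference of Smad4-KO minus WT with its 95% interval from limma (2 against 2 arrays) for the 6 complement genes and 37 other genes of the cascade, by role. Filled red symbols passed an adjusted p of 0.05, and crosses give the difference without Smad4-KO replicate 1. The 6 genes lie between 2.27 and 3.70, whereas the wide intervals of the terminal pathway genes come with crosses far from the circles.

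Marker lists of the cell types that a vessel can hold were measured on the same arrays. Of 17 macrophage markers, 12 rose and 0 fell in limma, with a median of 3.05, and 15 of 17 had both Smad4-KO arrays above both WT arrays. For all genes tested these shares were 4.92% higher, 1.39% lower and 25.9% with both Smad4-KO arrays above both WT arrays. Aif1, a calcium-binding protein of macrophages (4.34 ± 0.755), Fcgr1, an IgG receptor (3.79 ± 0.65), Fcer1g, a signalling chain of Fc receptors (3.72 ± 0.495), and Ptprc, a phosphatase of all white blood cells (3.66 ± 0.31), had the largest rises. The 5 that did not pass were Csf1r (1.75 ± 0.55), Mrc1 (1.503 ± 0.49), Lyve1 (0.83 ± 0.34), Mertk (-0.36 ± 0.44) and Cd163 (-0.555 ± 0.39). Of 6 neutrophil markers 4 rose (median 4.11), with summed signals of 1694 and 505 in WT against 14830 and 18865 in Smad4-KO. S100a9 (4.70 ± 0.68), S100a8 (4.36 ± 0.71) and Ngp (2.67 ± 0.44) rose. The fourth, Csf3r, was at 60.1 and 36.6 in WT, under the filter there, so it was tested through its Smad4-KO signals of 989 and 1078 and its call is no support. It was at least 16.1-fold higher with signals under 64 raised to 64. Among T cell markers 1 of 4 rose, Cd3d (2.33 ± 0.37). Without Smad4-KO replicate 1, neither Ngp (limma adjusted p = 0.0685) nor Cd3d (limma adjusted p = 0.065) passed, which left 3 neutrophil and 0 T cell markers called. None of 6 hepatocyte, 6 adipocyte, 8 fibroblast, 7 endothelial, 5 mast cell and 2 B cell markers passed in limma. The brightest markers of these lists differed by -0.07 (Fabp4) and -0.19 (Lpl) for adipocytes, and -0.16 (Col1a2) and 0.10 (Dcn) for fibroblasts. For endothelium they differed by -0.72 (Vwf) and -1.11 (Pecam1), where 4 of 7 markers were above 0. The endothelial median was 0.30, and -0.09 without Smad4-KO replicate 1. The brightest mast cell markers differed by -0.23 (Cpa3) and 0.34 (Cma1). The B cell markers Ms4a1 (1.41 ± 1.06) and Cd79b (2.03 ± 0.92) were highest on Smad4-KO replicate 1. Of 8 smooth muscle markers 3 fell, Cnn1 (-2.58 ± 0.29), Lmod1 (-2.55 ± 0.35) and Smtn (-2.34 ± 0.29). Summed, the list read 119659 and 148176 in WT against 57803 and 67472 in Smad4-KO, and 0 of its 8 differences were above 0. The list's median was -2.08, and -1.61 without Smad4-KO replicate 1. All 6 sympathetic nerve markers rose, led by Snap25 (5.95), Th (5.03), Prph (4.59) and Dbh (4.54). The part of these cell types in the complement differences was not tested.

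**Figure D3:**
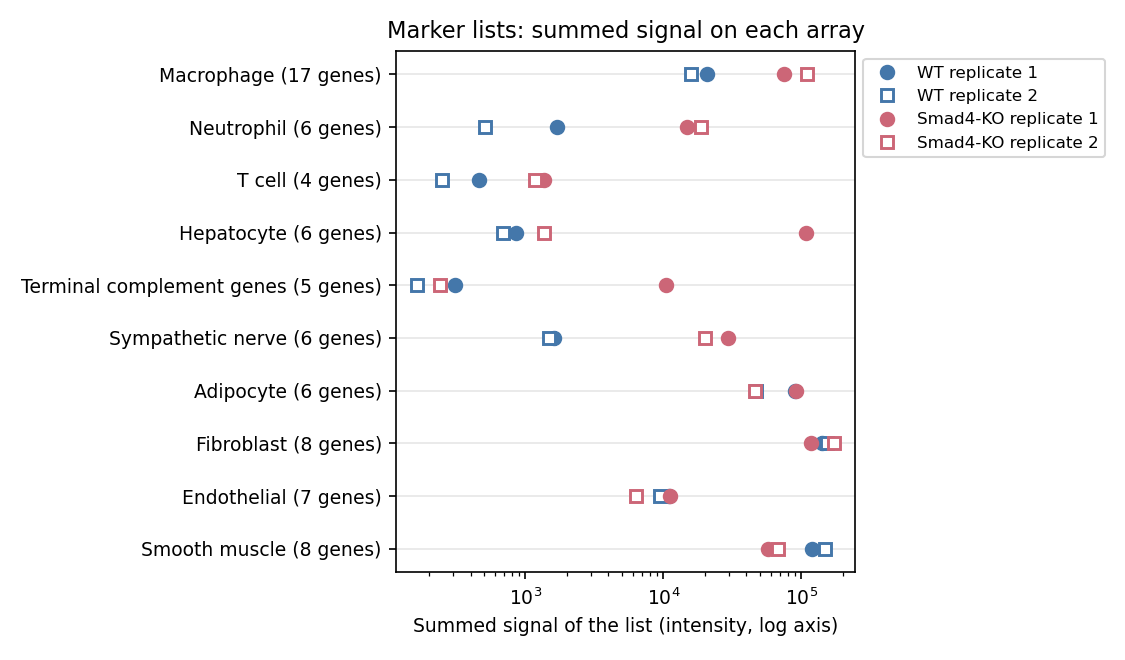
Summed signal of marker lists and of the terminal complement genes on each array (log axis, blue WT and red Smad4-KO). Macrophage markers sum to 20626 and 15769 in WT and to 75346 and 109910 in Smad4-KO, and hepatocyte markers and terminal complement genes are high on Smad4-KO replicate 1 alone. Totals of different lists are not to be compared with each other.

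The 6 genes were also set against the macrophage markers of the same array, as the log2 signal minus the mean log2 signal of the 17 markers. That mean was 9.33 and 9.02 in WT against 11.45 and 11.95 in Smad4-KO, a difference of 2.52. The list mixes markers of macrophages with genes of all white blood cells. Its members differed by -0.555 (Cd163) to 4.34 (Aif1), with a median of 3.05, and the 3.70 of C3ar1 lies within that range. A relative difference therefore depends on the markers chosen. C1qa was 1.08 and 0.63 above the mean in WT and 0.923 and 0.945 above it in Smad4-KO, so that its 2 Smad4-KO arrays lay within the WT range. Its relative difference was 0.08 ± 0.47 (95% interval -0.97 to 1.13). Those of C1qb (0.13 ± 0.51), C5ar1 (0.23 ± 0.47), Cfb (-0.19 ± 0.47) and C1qc (-0.25 ± 0.48) had intervals that held 0, which does not show that they follow the markers exactly. C3ar1 was 2.33 and 2.45 below the mean in WT and 1.16 and 1.27 below it in Smad4-KO. Its relative difference of 1.18 ± 0.46 (95% interval 0.15 to 2.20) was the one whose interval did not hold 0, and it lay between 1.12 and 1.23 when any 1 array was left out. With the C3ar1 probe set 1419483_at the relative difference was -0.16, so its sign depended on the probe set. Leaving out arrays did not test the choice of markers.

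**Figure D4:**
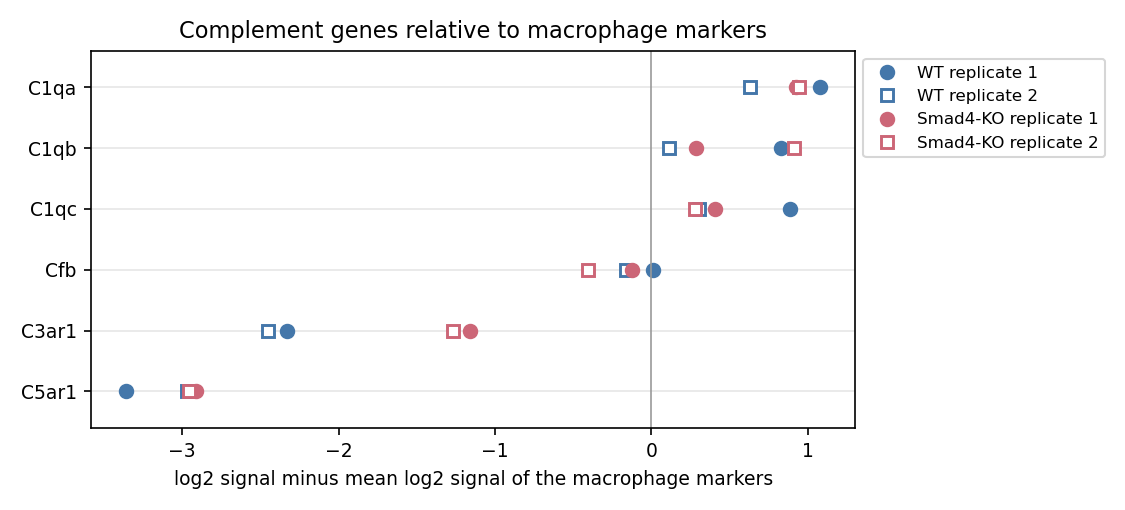
Log2 signal of each complement gene minus the mean log2 signal of 17 macrophage markers on the same array (blue WT, red Smad4-KO, one symbol per array). The ranges of red and blue symbols overlap for C1qa, C1qb, C1qc and Cfb and nearly touch for C5ar1 (-2.97 and -2.96), and C3ar1 is at -2.33 and -2.45 in WT and at -1.16 and -1.27 in Smad4-KO. Positions of different genes are not to be compared, since their probes differ.

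Transcription of complement genes in vessel walls is known to respond to interferon-gamma, interleukin-6 and interleukin-1. A list of 18 tested genes covered these signals, other inflammatory ones (Osm, Osmr and Tnfrsf1a) and transcription factors, among them Spi1 of myeloid cells. Of these genes, 4 rose and 0 fell in limma, with a median of 0.75 (0.97 without Smad4-KO replicate 1). Il1b, which encodes interleukin-1 beta, read 41.8 and 122 in WT against 1260 and 1942 in Smad4-KO, and was at least 17.7-fold higher with signals under 64 raised to 64 (limma adjusted p = 0.0194). Il6 read 15.8 and 49.9 in WT against 634 and 1635 in Smad4-KO, at least 15.9-fold higher with that floor. Its WT mean lay under the filter, so it was tested through Smad4-KO and its call is no support. Irf8, a transcription factor of macrophages, rose 10.96-fold (3.45 ± 0.36, limma adjusted p = 0.0136) and Irf1, which interferon-gamma induces, 3.09-fold (1.63 ± 0.29, limma adjusted p = 0.0386, and 0.0848 without Smad4-KO replicate 1). The receptors Ifngr1 (0.60 ± 0.32), Il6st (-0.01 ± 0.29) and Il1r1 (0.88 ± 0.305) and the NF-kB inhibitor Nfkbia (0.00 ± 0.52) did not pass. Ifng itself was below the signal at which genes were tested. The share called higher among all genes tested was 4.92%. The part of these signals in the complement differences was not tested.

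Among genes outside the complement lists, 5 had profiles nearest to the mean of C1qa, C1qb and C1qc, by the Euclidean distance of centred log2 signals over the 4 arrays. They were Panx1, a channel that releases ATP (distance 0.105), Rasgef1b (0.191), Nrros, a myeloid protein that holds latent TGF-beta (0.240), Trim14 (0.304) and Cd74, the invariant chain of MHC class II (0.309). Panx1 read 152 and 81.0 in WT against 543 and 798 in Smad4-KO, and Cd74 2092 and 1037 in WT against 8488 and 12040 in Smad4-KO. Each rose in limma, by 2.30 to 2.78 on the log2 scale. A choice by nearness to C1q fixed such rises in advance, so these calls are no support. With 4 arrays of 2 genotypes, a small distance describes the order of these arrays alone.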

How the data were processed

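The authors deposited probe set signal intensity on a linear scale for 45101 probe sets. Their processing notes, per the labels, name RMA and Affymetrix Expression Console, yet the deposited values are not in RMA's log form, include values below 1, and average 500 on each array after trimming 2% at each end. Probe sets were named from the platform annotation: 34945 have 1 symbol, 932 several and 9160 none, besides 64 controls. C3, without such an entry, was not analysed here.

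Each gene was represented by its probe set with the highest mean log2 signal, and genes below the 25th percentile (5.64) were left out. Genotypes were compared in limma 3.58.1 (R 4.3.3, lmFit and eBayes, two-sided), with Benjamini-Hochberg adjustment over 13645 genes at 0.05. Every ± is a standard error from that fit, and with so few arrays precision is low. The procedure was tested on simulated data. Tables and figures used Python 3.11.15, pandas 2.3.3 and matplotlib 3.10.9.

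The genes and lists were chosen with earlier results of these data known. Genes were named by rule: the listed complement genes, other complement genes past the threshold, Cd55, Cd59a, Cr1l, Clu, Hc and Serping1, up to 4 markers a list that passed with the largest differences or else the 2 brightest, and the 5 genes nearest in pattern to C1q (for C3 this could not be done). Other genes were named after their values were seen. Alternatives were a replicate block, a block for arrays alike in labelling controls, other normalizations and filters, probe set rules, a floor of 64, other variance models, a threshold of 0.10, and leaving out each array. The comparison with the macrophage marker mean was added after seeing the data.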

Additional observations from a re-analysis of the deposited data

How the results depend on the processing

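The 6 complement genes kept their positive difference under all alternatives run, over ranges of 2.22 to 2.98 for C1qa, 2.09 to 3.21 for C1qb, 1.82 to 2.72 for C1qc, 2.09 to 2.58 for Cfb, 3.42 to 3.91 for C3ar1 and 2.52 to 2.98 for C5ar1. Their adjusted p in limma ranged up to 0.135, 0.228, 0.181, 0.131, 0.0725 and 0.0869 in that order. With median centring of the arrays, the difference over all genes had a median of -0.16, the 6 genes lay between 2.11 and 3.54, and 4 were called. In place of the 861 genes called in limma, 1321 were called with the replicate block, 518 with the mean of probe sets and 1403 at an adjusted p of 0.10, while the fit of every probe set by itself called 205 probe sets. With the block for labelling pairs and without a filter 0 genes were called (2658 and 2788 at an unadjusted p under 0.05), and so were 0 of the 6 complement genes (6 and 6) and 0 of the other complement genes (10 and 6). Leaving out 1 array gave 0 to 808 genes, 0 to 5 of the complement genes and 0 to 11 of the others. By the fit of every probe set, 1 complement gene was called by its brightest probe set, and 0 of the other complement genes (8 at an unadjusted p under 0.05). The other complement genes called numbered 8 with the replicate block and 1 with the filter at the 50th percentile. Of those with the replicate block, C8a, C8g, Hc and Itgam had WT means under the filter on low signals, so their calls are no support. The cause of these changes in the counts was not tested.

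The labels share replicate numbers between the genotypes but do not say that a number marks a litter or day, and deviations of arrays with the same number correlated at -0.01 across genes. The replicate block called all 6 complement genes. That block also splits the arrays by Xist, which was high on those numbered 1 and low on those numbered 2. The part of this split in the calls was not tested. Leaving out an array assumes that the lone array of a genotype varies like the other group. Signals near or under 64, as for C5ar1 in WT, limit the size of a fold.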

Other observations

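Genes that act with C1q in the removal of dead cells and lipids differed among themselves. Of 16 tested, 3 were called higher and 0 lower in limma, and the median difference was 0.31 (0.09 without Smad4-KO replicate 1, with 2 called). Trem2, a lipid receptor of phagocytes, read 5.855 and 6.803 in WT against 652 and 527 in Smad4-KO, at least 9.16-fold higher with signals under 64 raised to 64. Its WT mean lay under the filter on low signals, so it was tested through Smad4-KO and its call is no support. Tyrobp, its signalling partner, rose 11.4-fold (3.52 ± 0.70, limma adjusted p = 0.0498) and Apoe, which carries lipid, 3.70-fold (1.89 ± 0.34, limma adjusted p = 0.0375, and 0.0841 without Smad4-KO replicate 1). Tyrobp is also in the macrophage list. Over all genes tested, 4.92% were called higher. The other 13 did not pass, among them Gas6 (0.13 ± 0.31), Axl (-0.19 ± 0.53), Mertk (-0.36 ± 0.44), Stab1 (0.94 ± 0.34) and Mfge8 (-0.71 ± 0.35).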
